A study of Mus musculus with 9 samples.

Results

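Expression of 44 genes that act in the G2 phase and in mitosis was examined in the liver of diabetic mice with steatohepatitis. The genes were chosen by name as known components of the mitotic machinery, and they stand among 20972 gene symbols on the array. The choice was made with earlier results of these data known. Shares set beside those of all genes therefore describe these genes and are no independent support. They were measured by 59 probes, and 29 of the 44 genes had a probe bright enough to be tested, among 13386 genes tested in all. The RNA was total liver RNA of male mice at 20 weeks of age, measured on 1-colour Agilent arrays, with 1 array per mouse and 3 mice per group. STAM mice received streptozotocin, a toxin of pancreatic beta cells, as newborns and were later fed a high-fat diet, and they develop fatty liver disease followed by liver tumours. The untreated STAM mice are called STAM-NON. The STAM-INS mice carried the same streptozotocin and diet and were also injected under the skin with insulin glargine, a long-acting insulin. Normal mice were labelled as normal, with no treatment given. The STAM mice were made from C57B/6 J mice, and the study states C57BL/6J as its mouse strain and a standard chow for mice not on a high-fat diet.

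Cells enter mitosis when cyclin-dependent kinase 1, bound to an A-type or B-type cyclin, is switched on at the end of G2. Polo-like and Aurora kinases then build the spindle, the kinetochores tie chromosomes to it, and the spindle checkpoint holds back the anaphase-promoting complex until every chromosome is attached. Most of these genes are transcribed only late in the cell cycle, and the adult liver, whose hepatocytes rarely divide, normally keeps them low.

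The transcription of late cell cycle genes is known to run through a pair of short promoter elements, the cell cycle genes homology region (CHR, bound by the MuvB complex with B-MYB and FOXM1) and the CCAAT box bound by NF-Y. Promoters from RefSeq (assembly GRCm38.p6, from 250 bases before to 50 bases after each annotated start) were found for 37 of the 44 genes and gave 40 promoters. A short string of letters was searched on both strands for each element. The CHR element TTTGAA was in 77.5% of the member promoters and in 17.9% of all 32851 promoters of that length. Its variant TTTAAA was in 22.5% and 13.2%, and CCAAT was in 80.0% and 37.4%. The CHR element and the CCAAT box stood together in 70.0% of member promoters and in 6.95% of all promoters. Matches of the CHR element and of its variant cannot share bases with each other, whereas the CCAAT box can share 1 base with either. Of the 39 CHR matches in member promoters, 29 lay within 50 bases of the start.

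The 150 bases before the start are shown for the 6 genes that passed the test in at least 1 comparison, for Cdk1, and for Pttg1, whose level did not follow the others. Capitals mark the CHR element, its variant and the CCAAT box, which reads ATTGG where it lies on the other strand. Ccnb1 (cyclin B1) lies at chr13:100786487-100786636 on the minus strand, Cdk1 at chr10:69352913-69353062 on the minus strand, Aurka (Aurora kinase A) at chr2:172370571-172370720 on the minus strand and Plk1 (Polo-like kinase 1) at chr7:122159285-122159434 on the plus strand. Cdc20, an activator of the anaphase-promoting complex, lies at chr4:118437344-118437493 on the minus strand, Hmmr, a spindle protein, at chr11:40733438-40733587 on the minus strand, Prc1, which bundles microtubules of the spindle midzone, at chr7:80294326-80294475 on the plus strand and Pttg1 (securin) at chr11:43425982-43426131 on the minus strand.
Ccnb1: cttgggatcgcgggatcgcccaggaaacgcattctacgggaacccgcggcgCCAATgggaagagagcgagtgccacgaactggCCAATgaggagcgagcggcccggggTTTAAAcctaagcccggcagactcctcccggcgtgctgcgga
Cdk1: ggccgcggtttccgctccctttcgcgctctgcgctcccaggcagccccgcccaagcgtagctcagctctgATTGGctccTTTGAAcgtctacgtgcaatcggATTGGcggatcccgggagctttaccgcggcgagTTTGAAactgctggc
Aurka: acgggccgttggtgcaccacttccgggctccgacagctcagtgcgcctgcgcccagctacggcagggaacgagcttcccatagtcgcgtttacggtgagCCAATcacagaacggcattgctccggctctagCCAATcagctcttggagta
Plk1: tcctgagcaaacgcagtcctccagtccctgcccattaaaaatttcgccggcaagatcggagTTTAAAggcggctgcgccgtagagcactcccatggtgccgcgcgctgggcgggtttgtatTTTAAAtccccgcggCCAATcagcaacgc
Cdc20: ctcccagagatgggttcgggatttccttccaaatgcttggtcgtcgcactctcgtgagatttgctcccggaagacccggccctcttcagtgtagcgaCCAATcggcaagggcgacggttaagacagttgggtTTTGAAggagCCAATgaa
Hmmr: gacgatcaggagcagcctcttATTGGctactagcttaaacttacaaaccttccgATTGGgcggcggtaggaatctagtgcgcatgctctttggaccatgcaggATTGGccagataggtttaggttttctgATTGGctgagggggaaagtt
Prc1: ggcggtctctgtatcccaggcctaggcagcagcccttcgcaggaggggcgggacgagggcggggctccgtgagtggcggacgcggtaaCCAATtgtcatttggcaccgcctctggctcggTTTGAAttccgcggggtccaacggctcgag
Pttg1: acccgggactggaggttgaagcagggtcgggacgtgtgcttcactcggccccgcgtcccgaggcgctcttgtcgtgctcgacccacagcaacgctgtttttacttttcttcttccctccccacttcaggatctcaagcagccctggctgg

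Cdk1, Cdc20 and Prc1 carried TTTGAA before the start. In Aurka, Plk1 and Hmmr the TTTGAA match lay after the start, outside the stretch shown. Ccnb1 held the variant and a pair of CCAAT boxes, with no CHR element in the window. Pttg1 held none of the 3 strings, as did Melk, Nuf2 and Nusap1. Of the 37 genes, 28 carried TTTGAA and 9 did not. The 9 without it were Birc5, Bub1, Ccnb1, Cenpe, Cks2, Melk, Nuf2, Nusap1 and Pttg1. A match is a description of letters in this window and was not tested as a binding site. For DNA replication genes, taken as a set of S phase genes for comparison, the share with TTTGAA was 12.9% of 31 promoters (26 genes). For further mitotic genes it was 37.4% of 115 promoters (102 genes).

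**Figure D1:**
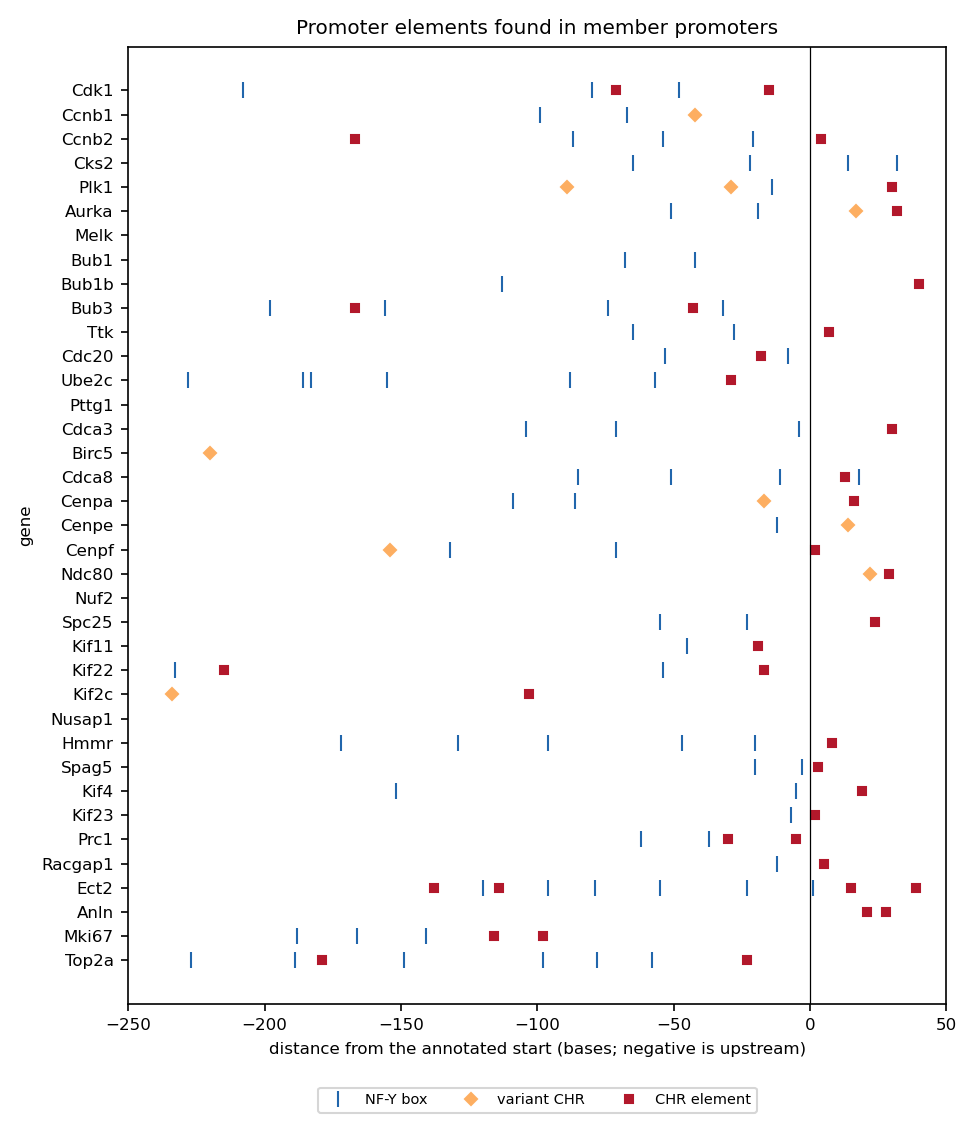
Positions of the promoter strings in 37 members, with the distance from each annotated start of the gene in bases on the x axis and 1 row per gene. Red squares are TTTGAA (CHR element), orange diamonds TTTAAA (variant CHR) and blue ticks CCAAT (NF-Y box), and most red squares sit within 50 bases of the start.

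Values below are log2 of the background-subtracted signal after subtraction of the array's own 75th percentile, called centred log2 signal. At a value of 0 a gene is as bright as the 75th percentile spot. Values of different genes are not comparable, because each rests on its own probe. Differences are log2 differences with their standard error (SE) from limma, and the threshold was an adjusted p of 0.05 over the 26278 probes tested. Between 46.2% and 65% of spots were well above background on each array. A probe is called detected below where it was well above background. Since 1 slide carried all STAM arrays and a different one all Normal arrays, slide and disease model cannot be told apart in any comparison with Normal. All STAM-NON arrays also lay in row 1 of their slide and all Normal arrays in row 2. The markers of hepatocytes were well above background on all arrays, for 10 of 10 genes.

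In STAM-NON livers, the mean level was higher than in Normal livers for 40 of the 44 genes, whether or not they were bright enough to test. Over all 20964 named genes with values, 41% had a higher mean. For 17 of the 44 genes every STAM-NON array lay above every Normal array, against 12.2% of all named genes. Without the array of STAM-NON replicate 2, that count was 35. The share of all named genes without that array was not computed, and full separation is easier to reach with fewer arrays. In STAM-INS livers the mean was higher than Normal for 42 of the 44 genes (45.5% of all named genes). Every STAM-INS array lay above every Normal array for 29 genes, against 13.4% of all. In 16 genes all 6 STAM arrays lay above all 3 Normal arrays: Cdk1, Ccna2, Ccnb1, Plk1, Aurka, Bub1, Cdc20, Ube2c, Cdca3, Cdca8, Kif22, Hmmr, Spag5, Prc1, Racgap1 and Mki67. The share of all named genes with this order was not computed, so the count only describes these genes. A further tested probe of Racgap1 and one of Cdca8 did not keep this order, with STAM-NON 2 below all Normal arrays on both. Of the 44 genes, 15 were too dim to be detected on any Normal array, so the order of their Normal values is not informative. Among the genes with no overlap with Normal, these were Bub1, Spag5 and Tpx2 in STAM-NON. In STAM-INS they were Bub1, Bub1b, Cdc25c, Kif2c, Kif4, Ndc80, Nuf2, Nusap1, Pbk and Spag5. In whole liver RNA, a change in the number of cells of a type and a change in RNA per cell cannot be told apart.

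**Figure D2:**
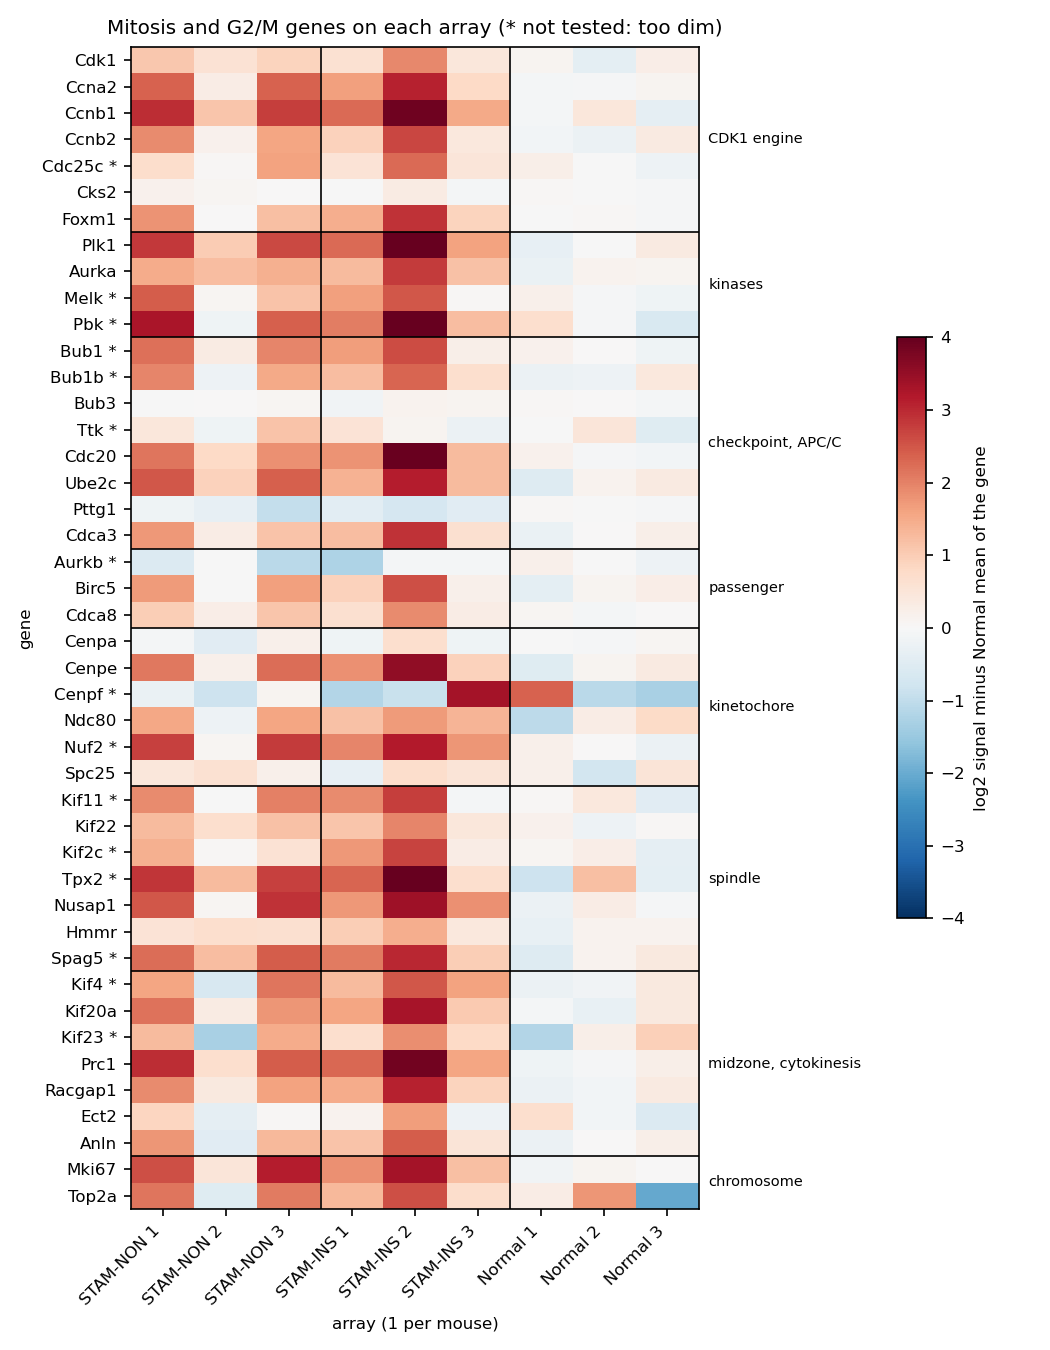
Heat map of the 44 genes (rows, grouped by role) on the 9 arrays (columns, 1 mouse each), coloured by log2 signal minus the Normal mean of the gene, with a star at the 15 genes too dim to test. STAM-INS 2 is the darkest column, STAM-NON 2 is close to the Normal columns, and Bub3, Cks2 and Pttg1 stay pale or blue.

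In STAM-NON against Normal, 2 of the 29 genes tested (6.9%) passed, both higher, against 7.87% of all genes tested. In STAM-INS against Normal, 6 of 29 (20.7%) passed, all higher, against 6.15% of all genes tested. In STAM-INS against STAM-NON, none passed, against 0.0822% of all genes tested. At an unadjusted limma p under 0.05, 11 genes were higher in STAM-NON than Normal (14.7% of all genes tested) and 19 were higher in STAM-INS than Normal (13.8% of all). The median difference over the 29 genes was 1.11 in STAM-NON against Normal, beside -0.11 over all genes tested, and 1.53 in STAM-INS against Normal, beside -0.07. A gene that was bright enough only in STAM livers entered the test because of that brightness, so these medians and counts describe the 29 genes and are no support for a shift of all 44.

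The calls rested on few arrays. In STAM-NON against Normal the count was 0 without STAM-NON 1, STAM-NON 3 or any one of the Normal arrays, and it was 7 without STAM-NON 2 (Ccna2, Ccnb1, Mki67, Nusap1, Plk1, Prc1 and Ube2c). In STAM-INS against Normal it was 0 without any one of the Normal arrays, 1 (Aurka) without STAM-INS 1 or STAM-INS 2, and 7 without STAM-INS 3. With no filter on dim probes no gene passed in either comparison, and with normexp or quantile normalisation none passed in STAM-NON against Normal.

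The members that drive entry into mitosis are Cdk1 with its cyclins, its docking subunit Cks2, its activating phosphatase Cdc25c and Foxm1, the transcription factor that switches on many late cell cycle genes. Ccnb1 was -0.93, -2.78 and -1.12 in STAM-NON replicates 1 to 3, -1.61, 0.02 and -2.37 in STAM-INS, and -3.96, -3.44 and -4.26 in Normal. All STAM arrays were higher than all Normal arrays, and the probe was well above background on only 1 Normal array. Ccnb1 was 4.84-fold higher in STAM-NON than Normal, a difference of 2.28 (SE 0.66) with an adjusted p of 0.04996 (limma), which lies on the threshold. In STAM-INS against Normal the difference was 2.57 (SE 0.66), or 5.93-fold, with an adjusted p of 0.0382. Ccnb1 passed in both comparisons, against Normal values that were mostly too dim to be detected. Its other 2 probes were detected on 2 STAM-NON, 2 STAM-INS and no Normal arrays and were not tested.

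Ccna2, the A-type cyclin of S phase and G2, was -0.73, -2.78 and -0.72 in STAM-NON, -1.45, 0.02 and -2.27 in STAM-INS, and -3.15, -3.12 and -2.96 in Normal. The groups did not overlap, yet STAM-NON 2 and STAM-INS 3 lay within 1 unit of the Normal arrays. The difference from Normal was 1.66 (SE 0.67, adjusted p 0.114) in STAM-NON and 1.84 (SE 0.67, adjusted p 0.098) in STAM-INS. Cdk1 itself was -1.55, -2.05 and -1.75 in STAM-NON, -2.00, -0.71 and -2.16 in STAM-INS, and -2.51, -3.01 and -2.35 in Normal. Its signal was 1.79-fold and 2-fold that of Normal (SE 0.37 each on the log2 scale), and these differences had adjusted p-values of 0.142 and 0.104. The Normal arrays were the lowest on this Cdk1 probe, by a small gap to STAM-INS 3. A further Cdk1 probe was detected on 1 STAM-NON and 1 Normal array, with its highest value (-3.21) on Normal 3. Another was detected on 1 STAM-NON array only, and neither was tested.

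Ccnb2, the other B-type cyclin, was 1.07, -0.65 and 0.76 in STAM-NON, 0.10, 1.86 and -0.39 in STAM-INS, and -0.94, -1.03 and -0.47 in Normal. STAM-NON 2 lay within the Normal range, and neither difference from Normal passed (1.20, adjusted p 0.193, and 1.33, adjusted p 0.171, SE 0.61). Foxm1 was -2.02, -3.80 and -2.60 in STAM-NON, -2.36, -0.91 and -2.93 in STAM-INS, and -3.82, -3.76 and -3.87 in Normal. It was well above background on 2 STAM-NON, 3 STAM-INS and 2 Normal arrays. All STAM-INS arrays were above Normal, with a difference of 1.75 (SE 0.56, adjusted p 0.0702), whereas STAM-NON 2 sat at the Normal level. Cks2 was nearly flat at 0.08 in both comparisons, with 95% intervals from -0.21 to 0.37. Cdc25c was well above background on 1 array only.

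Among the mitotic kinases, Aurka matures centrosomes, and Plk1 acts from centrosome maturation to cytokinesis. Both had higher means in the STAM groups than in Normal, and Plk1 passed the threshold in STAM-INS only. Aurka was -0.42, -0.67 and -0.47 in STAM-NON, -0.64, 0.90 and -0.74 in STAM-INS, and -2.17, -1.76 and -1.78 in Normal. Its lowest STAM-NON value was on STAM-NON 2, but that array stayed apart from Normal, and all 6 STAM arrays lay more than 1 unit above the highest Normal array. The difference was 1.38 (SE 0.39, 2.61-fold, adjusted p 0.0472) in STAM-NON and 1.74 (SE 0.39, 3.35-fold, adjusted p 0.0258) in STAM-INS.

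Plk1 was 0.06, -1.75 and -0.13 in STAM-NON, -0.51, 1.28 and -1.17 in STAM-INS, and -3.08, -2.79 and -2.42 in Normal. The STAM and Normal arrays did not overlap. Plk1 rose 6.19-fold in STAM-INS (2.63, SE 0.66, adjusted p 0.0359). In STAM-NON its difference of 2.16 (SE 0.66) had an adjusted p of 0.0573. Pbk and Melk, kinases of dividing and progenitor cells, were too dim to be detected on any Normal array and were not tested. Pbk was measured on 2 STAM-NON and 2 STAM-INS arrays, at least 1.13-fold and 1.75-fold above Normal. Each such bound sets the group mean against the dimmest detected signal of each Normal array, or the probe's own signal where that was higher. Here and below, dim STAM values stay in the group mean as measured, and the spread between mice is left out. The true difference can therefore be smaller than the bound.

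The spindle checkpoint members are Bub1, Bub1b, Bub3 and Ttk, and the genes that act with the anaphase-promoting complex are Cdc20, Ube2c, Cdca3 and its substrate Pttg1. Cdc20 was 0.74, -0.61 and 0.44 in STAM-NON, 0.42, 2.55 and -0.12 in STAM-INS, and -1.24, -1.46 and -1.49 in Normal. All STAM arrays lay above all Normal arrays. Cdc20 rose 5.07-fold in STAM-INS (2.34, SE 0.64, adjusted p 0.0454). In STAM-NON it was higher by 1.58 (SE 0.64, adjusted p 0.115).

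Ube2c, the ubiquitin-conjugating enzyme of that complex, was -0.05, -1.61 and -0.12 in STAM-NON, -1.12, 0.61 and -1.26 in STAM-INS, and -3.04, -2.37 and -2.15 in Normal. The groups did not overlap, and the difference was 1.93 (SE 0.58) in both comparisons, with adjusted p-values of 0.0549 and 0.0604. A further Ube2c probe gave adjusted p-values of 0.0462 and 0.0561, so the probes of this gene fell on either side of the threshold in STAM-NON. Cdca3, which triggers destruction of the kinase Wee1, was 1.06 higher in STAM-NON and 1.58 higher in STAM-INS (adjusted p 0.208 and 0.0941).

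Bub3 did not move with the rest. It was between 2.45 and 2.72 on every array, and its difference from Normal was 0.03 in both comparisons, with 95% intervals from -0.22 to 0.29. Bub1, Bub1b and Ttk were too dim to be detected on any Normal array. Pttg1, which holds separase in check until anaphase, was the member whose arrays all lay below Normal in both STAM groups. It was 5.23, 5.06 and 4.45 in STAM-NON, 4.97, 4.71 and 4.93 in STAM-INS, and 5.45, 5.39 and 5.34 in Normal. Its differences of -0.48 and -0.52 (SE 0.19 each) had adjusted p-values of 0.118 and 0.106, and all arrays lay lower in 17.5% and 18.6% of all named genes. Another Pttg1 probe gave -0.33 and -0.37.

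The chromosomal passenger members are Aurkb, Birc5 (survivin) and Cdca8 (borealin), which correct faulty attachments of chromosomes. Aurkb was not well above background on any array. Its values ran from -6.98 to -5.53 over the 9 arrays. Birc5 was 1.71, 0.01 and 1.64 in STAM-NON, 0.92, 2.59 and 0.20 in STAM-INS, and -0.38, 0.12 and 0.29 in Normal. STAM-NON 2 and STAM-INS 3 lay inside the Normal range, and the differences of 1.11 and 1.23 (SE 0.64) did not pass (adjusted p 0.243 and 0.219). Cdca8 was 0.79 and 0.94 higher (adjusted p 0.182 and 0.135). A further Cdca8 probe gave 0.63 and 1.06 (limma adjusted p 0.211 and 0.0702), with STAM-NON 2 below all Normal arrays.

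Of the kinetochore members tested, Cenpe, a motor that carries chromosomes to the spindle equator, varied most over the STAM arrays. Cenpe was -0.83, -2.73 and -0.68 in STAM-NON, -1.10, 0.61 and -2.00 in STAM-INS, and -3.41, -2.80 and -2.57 in Normal, where it was well above background on 2 of 3 arrays. STAM-NON 2 overlapped Normal, and the difference was 1.51 (SE 0.72, adjusted p 0.17) in STAM-NON and 2.09 (SE 0.72, adjusted p 0.0864) in STAM-INS. Cenpe had the widest range over the 6 STAM arrays among the genes tested, 10.1-fold from lowest to highest. Cenpa, the histone variant that marks centromeres, and Spc25, a subunit of the Ndc80 complex, differed little from Normal, by -0.12 and 0.42 in STAM-NON (adjusted p 0.763 and 0.423). Ndc80 and Nuf2 of the same complex were too dim to be detected on any Normal array. Ndc80 lay at least 1.14-fold above Normal in STAM-NON and at least 1.55-fold above it in STAM-INS (adjusted p 0.249 and 0.128). Cenpf was well above background on 1 STAM-INS and 1 Normal array only, at -1.46 and -2.40, while its other 7 values lay between -6.06 and -4.67.

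Spindle members build and focus microtubules. Hmmr, a microtubule-associated protein of the spindle poles, was -0.35, -0.22 and -0.26 in STAM-NON, 0.10, 0.56 and -0.47 in STAM-INS, and -1.17, -0.76 and -0.73 in Normal. No STAM array overlapped Normal. Hmmr rose 1.93-fold in STAM-INS (0.95, SE 0.25, adjusted p 0.0391) and was 1.53-fold higher in STAM-NON (0.61, SE 0.25, adjusted p 0.116). Unlike most members, it was not low on STAM-NON 2. Nusap1, which ties microtubules to chromatin, was -1.83, -4.23 and -1.44 in STAM-NON, -2.60, -0.94 and -2.50 in STAM-INS, and -4.56, -4.04 and -4.37 in Normal, all of these Normal values being too dim. It lay at least 2.64-fold above Normal in STAM-NON and at least 3.69-fold above it in STAM-INS (adjusted p 0.111 and 0.0661). STAM-NON 2 was again at the Normal level. Kif22, a motor that pushes chromosome arms, was 1.04 and 1.17 higher (adjusted p 0.0739 and 0.0577).

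Kif11, Kif2c, Tpx2 and Spag5, which slide, depolymerise, nucleate and anchor spindle microtubules, were not tested. The probes of Tpx2, the activator of Aurora kinase A, disagreed. The probe that stands for the gene was detected on 2 STAM-NON, 2 STAM-INS and no Normal arrays, at least 2.32-fold above Normal in STAM-NON and at least 2.48-fold above it in STAM-INS. The other was detected on 1 STAM-NON, 1 STAM-INS and 2 Normal arrays, with its highest value (-1.46) on a Normal array, so no direction is given for Tpx2. In 8 of the 15 untested genes the probe was detected on 2 of 3 STAM-NON arrays and on no Normal array. These genes just missed the filter, which asked for all 3 arrays of a group.

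The genes of the spindle midzone and of cytokinesis split the daughter cells. Prc1 was 0.23, -2.06 and -0.32 in STAM-NON, -0.44, 1.14 and -1.16 in STAM-INS, and -2.91, -2.77 and -2.51 in Normal. The STAM arrays did not overlap Normal, though STAM-NON 2 came within 0.5 of it. Prc1 rose 5.96-fold in STAM-INS (2.58, SE 0.68, adjusted p 0.0414) and was 4.04-fold higher in STAM-NON (2.01, SE 0.68, adjusted p 0.075). Kif20a, its partner motor, and Racgap1, a subunit of centralspindlin, were 1.42 and 1.30 higher in STAM-NON (adjusted p 0.144 and 0.142) and 1.97 and 1.82 higher in STAM-INS (adjusted p 0.07 and 0.067). A further Racgap1 probe gave 0.64 in STAM-NON and 1.15 in STAM-INS (limma adjusted p 0.422 and 0.185), with STAM-NON 2 below all Normal arrays. Ect2, the exchange factor that switches on RhoA at the cleavage furrow, and Anln, a scaffold of the contractile ring, had differences of 0.18 and 0.87 in STAM-NON (adjusted p 0.831 and 0.334) and of 0.54 and 1.36 in STAM-INS (adjusted p 0.508 and 0.166). Kif4 and Kif23 were not tested.

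Mki67, the gene of the proliferation marker Ki-67, which coats mitotic chromosomes, was 0.86, -1.25 and 1.40 in STAM-NON, 0.09, 1.60 and -0.52 in STAM-INS, and -1.85, -1.62 and -1.70 in Normal. All STAM arrays lay above Normal, but the STAM values spanned nearly 3 log2 units. The difference was 2.06 (SE 0.71, adjusted p 0.0801) in STAM-NON and 2.11 (SE 0.71, adjusted p 0.0818) in STAM-INS, and a further Mki67 probe gave 2.10 and 2.16. Top2a, the topoisomerase that untangles sister chromatids, was -1.86, -4.48 and -1.91 in STAM-NON, -2.70, -1.43 and -3.29 in STAM-INS, and -3.71, -2.24 and -6.06 in Normal. Its Normal values were the most scattered of the members tested, and only 1 of them was well above background. The differences of 1.25 and 1.53 (SE 1.05) did not pass (adjusted p 0.41 and 0.34).

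**Figure D3:**
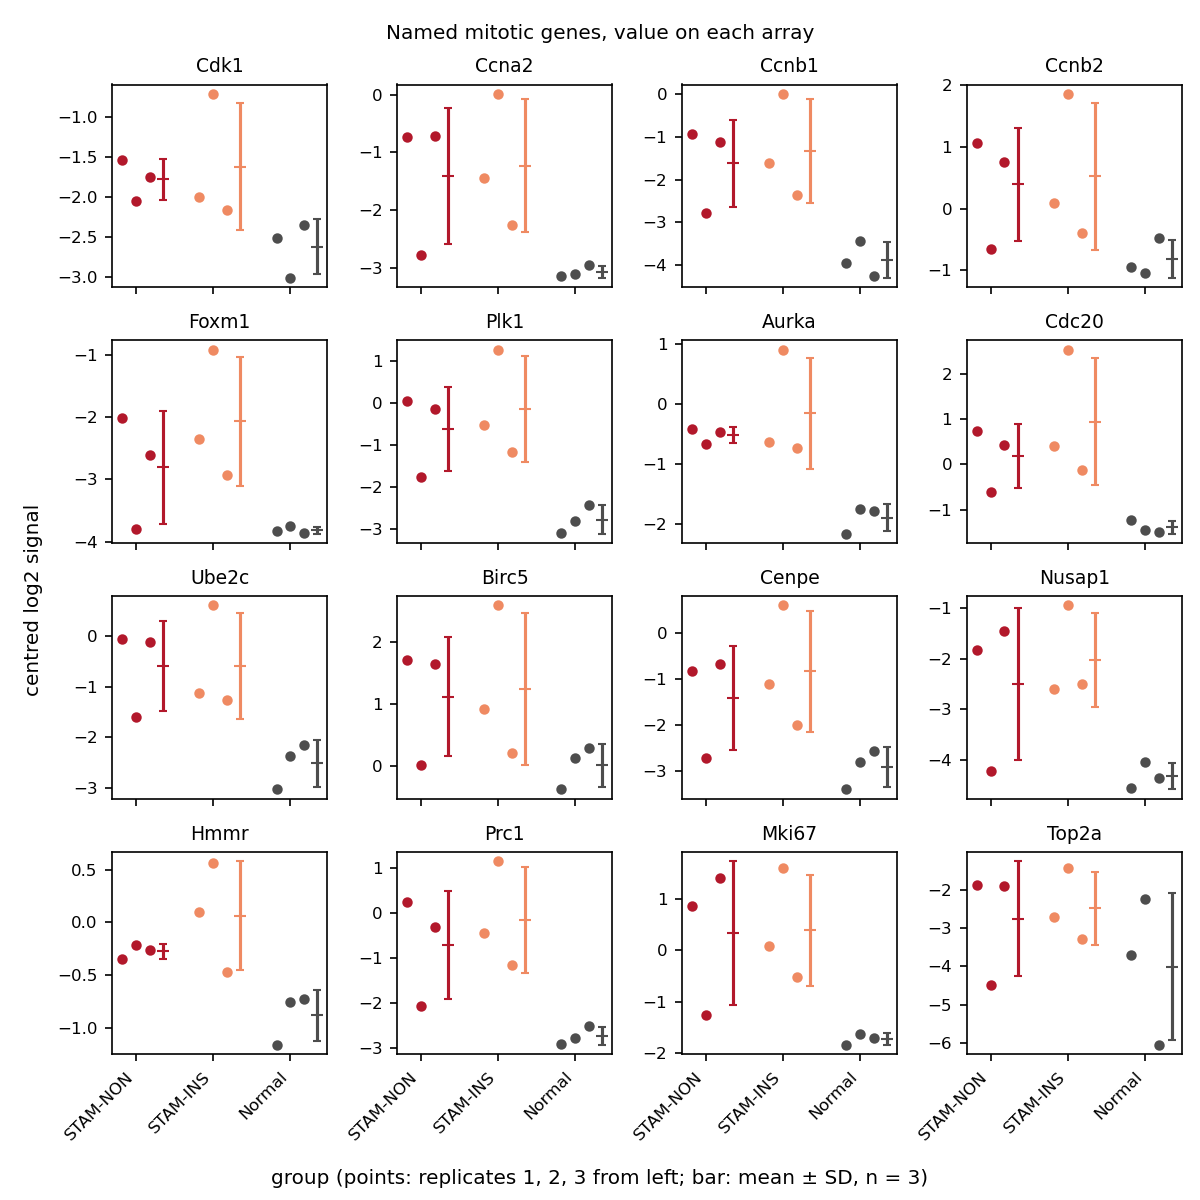
Centred log2 signal of 16 genes on each array, with points for replicates 1, 2 and 3 from left to right in each group and bars for the mean and SD (n = 3). In most panels STAM-NON 2 is the lowest and STAM-INS 2 the highest STAM point, whereas Aurka and Hmmr keep STAM-NON 2 with its group.

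**Figure D4:**
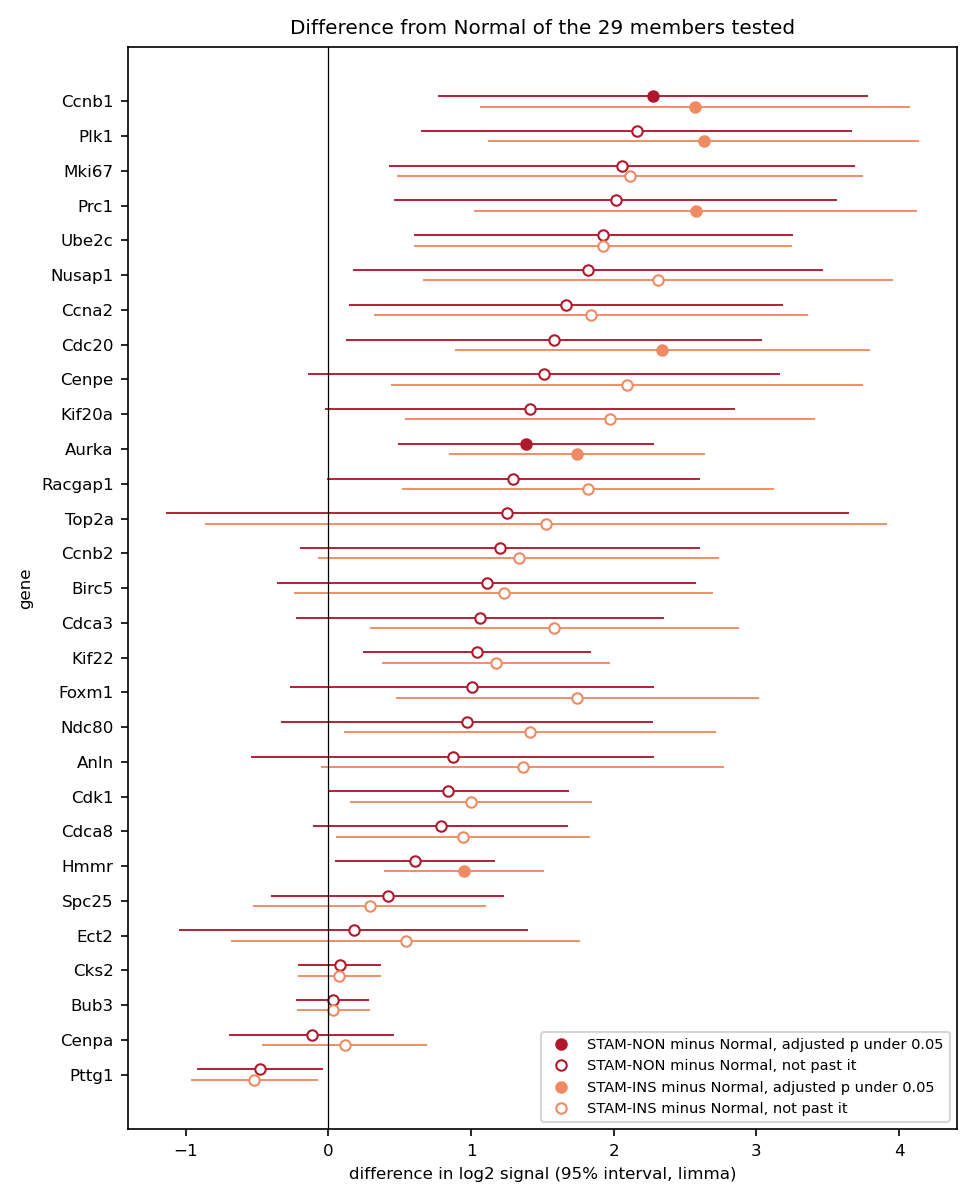
Difference from Normal in log2 signal with its 95% interval (limma) for the 29 genes tested, ordered by the STAM-NON difference, with filled points where the adjusted p was under 0.05. Filled points are Ccnb1 and Aurka in STAM-NON and Ccnb1, Plk1, Prc1, Cdc20, Aurka and Hmmr in STAM-INS, and Bub3, Cks2 and Cenpa sit near 0.

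Insulin treatment was compared with no treatment within the STAM model, where both groups lay on 1 slide. None of the 29 genes passed, and at an unadjusted limma p under 0.05 the count was also 0, beside 9.32% of all genes tested. Aurka differed by 0.36 (95% interval from -0.54 to 1.26), Plk1 by 0.47 (from -1.04 to 1.98) and Mki67 by 0.05 (from -1.58 to 1.69). These intervals are wide enough to hold changes of more than 2-fold either way for Plk1 and Mki67. The mean was higher in STAM-INS for 39 of 44 genes, against 57.6% of all named genes, but every gene overlapped between the groups (5.56% of all named genes lay fully higher and 4.09% fully lower). That direction depended on single arrays, since the count was 8 of 44 without STAM-INS 2 and 15 of 44 without STAM-NON 2. The median difference over the 29 genes was 0.29 with all arrays, -0.14 without STAM-INS 2 and -0.05 without STAM-NON 2. It was 0.143 with centring on the E1A spike-in controls and 0.00344 with slide row as a block. STAM-INS 1 was the only STAM-INS array in row 1, where all STAM-NON arrays lay. The value with row as a block therefore sets STAM-INS 1 alone against the STAM-NON mean.

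The mice of a STAM group differed widely in these genes. The median SD over the 29 genes was 0.883 in STAM-NON and 0.99 in STAM-INS, against 0.239 and 0.169 over all genes tested. In Normal it was 0.252, against 0.15. The SD exceeded 0.5 for 19 of 29 genes in STAM-NON and for 24 in STAM-INS, compared with 17.7% and 10.2% of all genes tested. From the lowest to the highest STAM array, the signal ranged from 1.21-fold (Bub3) to 10.1-fold (Cenpe), with a median of 5.99-fold.

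The highest mouse was the same for most of these genes, and the lowest was less uniform. STAM-INS 2 was the highest of the 6 STAM arrays for 40 of the 44 genes and for 12.6% of all genes tested. The exceptions were Ttk, Pttg1, Aurkb and Cenpf. STAM-NON 2 was the lowest for 28 of 44, and STAM-INS 3 for 11. Over all genes tested they were the lowest for 11.2% and 11%. The median difference from the Normal mean over the 29 genes was 1.76, 0.30 and 1.57 on STAM-NON 1 to 3 and 1.23, 2.67 and 0.71 on STAM-INS 1 to 3, while the Normal arrays lay between -0.08 and 0.12. The number of the 44 genes well above background was 40, 25 and 40 in STAM-NON, 40, 40 and 30 in STAM-INS, and 24, 27 and 26 in Normal. The share of all named genes above background was 72.2%, 63.1% and 74.3% in STAM-NON, 75.4%, 63.7% and 64.5% in STAM-INS, and 61.3%, 63.8% and 64.7% in Normal. STAM-INS 2, the array with the highest mitotic levels, was thus among the arrays with fewer genes detected, and STAM-NON 2 was low in both, with a share of detected genes like that of the Normal arrays.

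**Figure D5:**
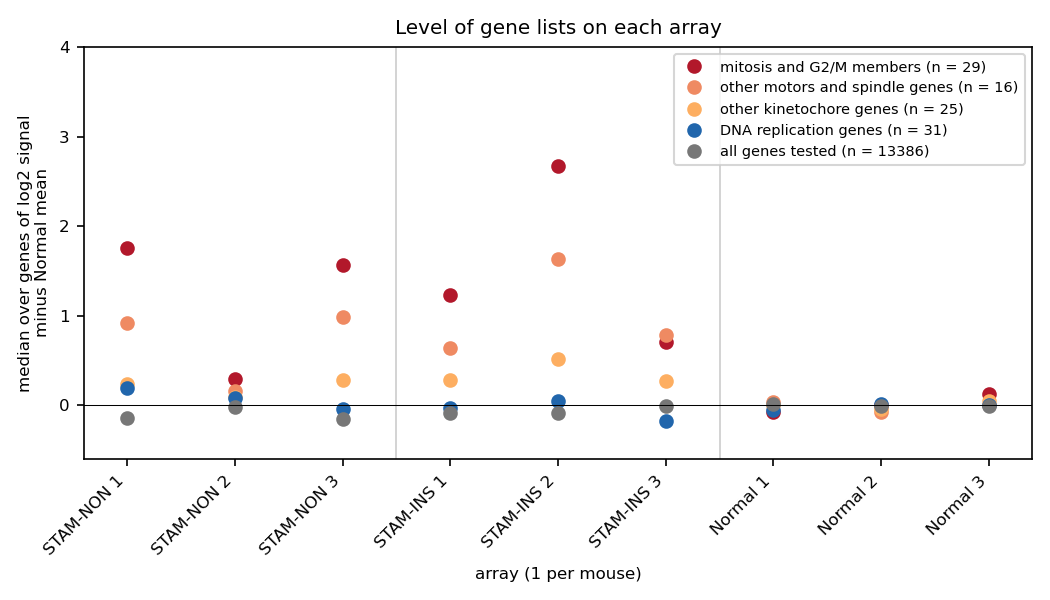
Median over the tested genes of a list of log2 signal minus the Normal mean (y axis) on each of the 9 arrays (x axis), for the mitosis and G2/M genes, other spindle, kinetochore and DNA replication genes, and all genes tested. The mitosis and G2/M medians run from 0.30 to 2.67 on the STAM arrays, and the replication medians stay between -0.18 and 0.19.

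Of 31 tested DNA replication genes, the S phase set, 2 rose and 3 fell in STAM-NON against Normal, and the median difference was 0.08. Over all genes tested 7.87% rose and 8.93% fell, so these counts are near the background. The 5 calls were 1 without STAM-NON 1 or any one of the Normal arrays, 3 without STAM-NON 3 and 5 without STAM-NON 2. The subunits Mcm2 and Mcm5 of the replicative helicase rose by 1.26 and 1.32 (adjusted p 0.031 and 0.0485). Mcm10, which helps to start replication forks, dropped by 1.74 (adjusted p 0.0426), and Tk1, the salvage enzyme for thymidine, dropped by 1.53 (adjusted p 0.00397). Gins3, a subunit of the same helicase complex, dropped by 0.41 (adjusted p 0.0347). In STAM-INS against Normal none rose and 4 fell: Mcm10, Tk1, Cdc45 and Gmnn, with a median of -0.11, while 6.15% of all genes tested rose and 7.49% fell. These 4 calls were 1 or 2 without STAM-INS 2 or any one of the Normal arrays. Pcna, the sliding clamp, differed by -0.14 and -0.22 (adjusted p 0.4 and 0.228).

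Among 92 tested genes of other mitotic lists, 14 rose and 2 fell in STAM-NON, and 16 rose and 4 fell in STAM-INS, both against Normal. The median differences were 0.09 and 0.14. The background shares over all genes tested were 7.87% higher and 8.93% lower in STAM-NON, and 6.15% higher and 7.49% lower in STAM-INS. The 16 calls in STAM-NON became 25 without STAM-NON 2 and 2 to 6 without any other array, and the 20 calls in STAM-INS became 3 to 13 without any one array. Single genes of these lists are therefore named as descriptions of the fit to all arrays. A gene of these lists that was bright enough only in STAM livers also entered the test because of that brightness. The counts of calls therefore describe the genes tested and are no support for a shift of the lists. Of 16 further motors and spindle proteins, 4 rose in STAM-NON and 6 in STAM-INS, and none fell. Psrc1, a spindle microtubule protein, was -2.74, -1.48 and -1.28 in STAM-NON, -2.40, -2.05 and -1.15 in STAM-INS, and -5.68, -5.64 and -3.47 in Normal. It rose by 3.10 and 3.06 (SE 0.65, adjusted p 0.0219 and 0.0218), with only 1 Normal array well above background, so the size of the difference rests on dim Normal values. Ckap2 and Gtse1, both microtubule-associated, and Haspin, the histone kinase that recruits the passenger complex, were too dim on all Normal arrays. In STAM-NON they rose at least 1.39-fold, at least 1.39-fold and at least 1.94-fold (adjusted p 0.0472, 0.0148 and 0.02). These genes entered the test only through their STAM arrays, so the p-values describe the fit and are no support for a rise.

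Of 25 further kinetochore genes, 6 rose and 1 fell in STAM-NON, and 5 rose and 1 fell in STAM-INS. The shares over all genes tested were 7.87% higher and 8.93% lower in STAM-NON, and 6.15% higher and 7.49% lower in STAM-INS. Incenp, the scaffold of the passenger complex, was 1.64, 0.74 and 1.63 in STAM-NON, 1.25, 1.88 and 1.07 in STAM-INS, and 0.14, -0.04 and 0.05 in Normal. It rose by 1.29 and 1.35 (SE 0.28, adjusted p 0.0246 and 0.0208). Oip5, which loads Cenpa at centromeres, was too dim on all Normal arrays and rose at least 1.78-fold in STAM-NON and at least 1.47-fold in STAM-INS (adjusted p 0.0163 and 0.0222). Spc24, the partner of Spc25, went the other way: it dropped by 1.25 in STAM-NON and by 0.81 in STAM-INS (adjusted p 0.00727 and 0.0197). Cdca5 (sororin), which protects sister chromatid cohesion, rose by 1.58 and 1.60 (adjusted p 0.0185 and 0.0168). Espl1, the separase that cuts cohesin, rose at least 1.83-fold in STAM-INS (adjusted p 0.0168). Like Oip5, Espl1 was too dim on all Normal arrays. Both entered the test only through STAM arrays, so their p-values describe the fit and are no support for a rise. Stag2, a subunit of cohesin, dropped by 0.44 in both comparisons (adjusted p 0.0376 and 0.0396). The median over the 16 condensin and cohesin genes tested was -0.03 in STAM-NON and 0.01 in STAM-INS. None of 14 tested subunits and partners of the anaphase-promoting complex passed, with 2 higher and 1 lower at an unadjusted limma p under 0.05 in STAM-NON.

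Of 13 regulators of these promoters, 2 rose and none fell in STAM-NON, and 2 rose and 1 fell in STAM-INS. Over all genes tested, 7.87% rose and 8.93% fell in STAM-NON, and 6.15% rose and 7.49% fell in STAM-INS. With so few genes, these counts only describe the list. Their median differences were -0.21 and -0.17. E2f2, an activating E2F factor, rose by 1.61 in STAM-NON and 2.07 in STAM-INS (adjusted p 0.0456 and 0.0234). Rbl1 (p107), a pocket protein that can join the MuvB complex as a repressor, rose by 1.56 and 1.47 (adjusted p 0.0206 and 0.0232). Mybl2, which encodes B-MYB, differed by 0.67 and 0.13 (adjusted p 0.0663 and 0.71), and Lin9, a MuvB core subunit, dropped by 0.64 in STAM-INS (adjusted p 0.0317). Only Wee1 passed between insulin-treated and untreated STAM livers among the 92 genes. Wee1, the kinase that holds Cdk1 inactive before mitosis, was 0.94, 1.09 and 0.70 in STAM-NON, -1.44, -1.26 and -1.16 in STAM-INS, and 1.61, 1.17 and 1.35 in Normal. It dropped by 2.19 in STAM-INS against STAM-NON (SE 0.16, adjusted p 0.00184), and all STAM-INS arrays lay below all others. Within each group its 3 arrays lay close together.

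Markers of other cell types were read on the same arrays. Over all genes tested, 7.87% rose and 8.93% fell in STAM-NON against Normal, and 6.15% rose and 7.49% fell in STAM-INS against Normal. Of 5 pan-leukocyte genes, 4 rose in STAM-NON and 3 in STAM-INS against Normal, and their median differences from the Normal mean were 1.27, 0.54 and 1.57 on STAM-NON 1 to 3 and 0.99, 1.24 and 0.96 on STAM-INS 1 to 3. Of 8 macrophage genes, 3 rose in each comparison, with medians of 1.20, 0.42 and 1.40 and of 0.37, 1.57 and 1.01. STAM-NON 2 was thus lowest in its group for both lists and STAM-INS 2 highest in its group. The medians of 6 neutrophil genes were 2.11, 0.16 and 6.06 in STAM-NON and 2.39, 2.86 and 1.34 in STAM-INS. None of them passed in STAM-NON against Normal, and in STAM-INS 1 fell and none rose. The summed signal of 7 erythroid genes, relative to the 75th percentile spot, ran from 88.6 to 677 in STAM-NON, from 111 to 887 in STAM-INS and from 133 to 150 in Normal, with STAM-INS 2 highest. The neutrophil list was thus lowest on STAM-NON 2 among the STAM arrays, and highest on STAM-NON 3. Of 5 cholangiocyte genes, 3 rose in STAM-NON and 1 in STAM-INS, with medians of 1.28, 0.79 and 0.99 and of 1.45, 1.19 and 0.63. Of 7 endothelial genes, 1 rose in STAM-NON and none in STAM-INS, with medians of 0.35, -0.17 and 0.82 and of -0.62, 0.35 and 0.13. Both lists were lowest on STAM-NON 2 within STAM-NON, and the endothelial list was highest on STAM-INS 2 within STAM-INS. None of 6 T and NK cell genes and none of 2 B cell genes tested passed in either comparison. The T and NK medians were -0.11, 0.19 and 0.78 in STAM-NON and 0.43, -0.17 and 0.44 in STAM-INS. They were thus lowest on STAM-NON 1 and on STAM-INS 2 within their groups, unlike the mitotic genes. The B cell medians were -0.75, -1.11 and 1.22 in STAM-NON and -0.21, 0.04 and -0.19 in STAM-INS. The medians of 8 stellate cell genes were 1.06, 0.46 and 0.94 in STAM-NON and 0.71, -0.09 and 0.02 in STAM-INS. The stellate list was lowest on STAM-NON 2 and on STAM-INS 2 within their groups. The 10 hepatocyte genes had medians of -0.48, -0.15 and -0.39 in STAM-NON and -0.34, -0.22 and -0.19 in STAM-INS. Of these genes, 2 fell in STAM-NON and 1 in STAM-INS against Normal, and none rose. The part of these cell types in the levels of the mitotic genes was not tested.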

How the data were processed

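Liver RNA of 9 male mice, 3 per group, was hybridised to 1-colour Agilent arrays. Groups and replicate numbers came from the sample labels, and the study's methods state 3 mice per group. The authors deposited scanner output of Agilent Feature Extraction 11.5.1.1, which holds the linear intensity of each spot (processed signal, already background-subtracted, not normalised between arrays) with spot and background medians and flags. The study's methods name no normalisation or test for the arrays.

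Control and flagged spots were left out, spots of a probe were averaged, and log2(processed signal) was centred on the array's 75th percentile. Probes were kept if at least 0.5 of their spots were well above background on all 3 arrays of at least 1 group, which left 26278 of 55681 probes. limma 3.58.1 in R 4.3.3 (lmFit, eBayes, two-sided) was fitted to all 9 arrays (6 residual degrees of freedom), with Benjamini-Hochberg adjustment over all probes kept and a threshold of 0.05. The code was tested on simulated data. Probes were named by RefSeq accession through the GRCm38.p6 table (27656 probes, 20972 symbols), and each gene stands by its brightest tested probe. The number of arrays limits the precision.

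The 44 genes and all lists were chosen with earlier results of these data known. Values on every array are given for members past the threshold, for the member of each role with the largest difference in STAM-NON, and for 11 well-known members, and up to 5 genes per further list are named. Wider alternatives were normexp background correction (offset 50, on spot medians, since a mean signal was not used here), quantile normalisation, other centring and detection rules, eBayes with trend, fits of 2 groups, blocks for replicate number and slide row, and leaving out each array.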

Additional observations from a re-analysis of the deposited data

How the results depend on the processing

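The precision was limited by 3 arrays per group and by dim probes, 15 of the 44 genes being too dim to test. All Normal arrays lay on 1 slide of their own, so slide as a random block was not run. All STAM-NON arrays lay in row 1 of the slide and all Normal arrays in row 2, so row and group cannot be told apart between them. STAM-INS 1 lay in row 1, and STAM-INS 2 and 3 in row 2. With row as a block, the row effect was thus estimated from the STAM-INS arrays alone. For STAM-INS against STAM-NON, the fit of the 2 groups alone is the value within 1 slide, with no gene passing. The count of genes that passed in STAM-NON against Normal (2) was 5 with centring on the E1A spike-in controls and in the fit of the 2 groups alone, 4 with trend and robust eBayes, 1 with centring on the array median or on the percentile of probes detected on all arrays, and 0 with no filter, normexp, quantile normalisation or slide row as a block. In STAM-INS against Normal (6) it was 0 with no filter and 1 with slide row as a block. With the replicate number as a block the counts were 0 and 1, and the block changed no call in STAM-INS against STAM-NON. Same-numbered arrays deviated together with correlations between -0.288 and 0.149, so the numbers were not taken as a pairing. In STAM-INS against STAM-NON the count was 0 under all 18 alternatives. Leaving out 1 array at a time gave counts from 0 to 7 in both comparisons with Normal. For the counts over all 44 genes, an alternative chosen after seeing the data, it gave 17 to 35 genes with all arrays higher and 1 to 2 with all lower in STAM-NON against Normal, and 1 to 2 with all lower in STAM-INS against Normal. In STAM-INS against STAM-NON it gave 8 to 41 genes with a higher mean, 0 to 2 with all arrays higher and 0 to 1 with all lower. Leaving out an array can only keep or raise a count of genes without overlap. The low ends of the ranges for all arrays higher or lower were thus fixed in advance. Over all alternatives, the calls in the other mitotic lists ran from 0 to 25 in STAM-NON and from 2 to 24 in STAM-INS against Normal, and those in the replication list from 1 to 8 and from 1 to 5.

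For the 16 genes plotted by array, no difference from Normal turned direction under the alternatives run. The alternatives were not run gene by gene for other genes, and the differences of Bub3, Cks2 and Cenpa from Normal are small enough for another centring to turn them. Medians over all probes tested were -0.13, 0.18 with E1A centring and -0.29 with array-median centring in STAM-NON against Normal, and the median over the 29 genes stayed between 0.617 and 1.59. STAM-INS against STAM-NON differences, none of which passed, turned sign. With slide row as a block they were -0.12 for Aurka, -0.196 for Birc5, -0.0394 for Ccna2, -0.293 for Ccnb2, -0.22 for Cdk1, -0.245 for Mki67 and -0.103 for Nusap1, and the median over the 29 genes was 0.00344. These values set STAM-INS 1 alone against the STAM-NON mean. With E1A centring the differences were -0.028 for Birc5, -0.0178 for Ccnb2 and -0.0957 for Mki67. Leaving out 1 array at a time, the range was -0.171 to 0.652 for Aurka, -0.555 to 0.638 for Birc5, -0.508 to 0.693 for Ccna2, -0.377 to 0.816 for Ccnb1, -0.537 to 0.587 for Ccnb2, -0.0415 to 1.29 for Cdc20, -0.299 to 0.426 for Cdk1, -0.137 to 1.17 for Cenpe, -0.742 to 0.586 for Mki67, -0.379 to 1.02 for Nusap1, -0.238 to 0.986 for Plk1, -0.11 to 1.07 for Prc1, -0.591 to 0.716 for Top2a and -0.601 to 0.334 for Ube2c. The cause was not tested.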
